A study of Saccharomyces cerevisiae with 40 samples.

Results

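The reading frames described here are yeast genes whose platform gene symbol is a systematic name ending in a letter suffix, such as YNL162W-A. They were taken as every probe set with a single gene symbol of that form, which gave 81 genes of the 5656 that the array names, read by 135 of its 9335 probe sets (9275 without controls). Signal was measured in Saccharomyces cerevisiae on 40 arrays. GAL-NMD2 carried an nmd2::HIS3 disruption and a plasmid in which the GAL1 promoter, switched on by galactose, drives NMD2, and nmd2D carried the same disruption with an empty URA3 vector, so both strains lacked chromosomal NMD2. Both were sampled at 0, 10, 20, 40 and 60 min with 4 replicates each. The cells grew at 30 degrees without uracil; the series design describes raffinose with galactose added at 0 min, while the samples' growth protocol lists only galactose. The labels give HFY1400 as the host of both plasmids and name no separate clones, so an effect of 1 transformant cannot be told apart from that of the plasmid.

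Nonsense-mediated mRNA decay (NMD) is a surveillance pathway that removes transcripts on which translation ends too early, through the factors Upf1 (NAM7 in yeast), Upf2 (NMD2) and Upf3 (UPF3). Its substrates include mRNAs with premature stop codons, with upstream reading frames or with long stretches after the stop codon. Suffix names were given to yeast reading frames added between genes already numbered along a chromosome. Many of these frames are very short and have no known function, and others belong to Ty retrotransposons, whose Gag and Pol proteins are translated from a common RNA by a ribosomal frameshift.

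Gene identifiers matched all 81 genes to the gene table of RefSeq R64. Of these, 74 were short frames of 51 to 711 bp, with a median of 202 bp, and 66 of them were 300 bp or less. The other 7 were 4645 to 5383 bp long and are the Gag-Pol frames of Ty elements (YBL005W-B, YBL100W-B, YDR098C-B, YDR261W-B, YGR109W-B, YHR214C-B and YOR192C-B), so the word small did not apply to them. Most genes, 66, had 1 probe set, and 15 had more. YGR109W-B, the Gag-Pol frame of a Ty3 element, alone had 23 probe sets, and YDR034C-A and YOR192C-C had 7 each. In 61 of the 135 probe sets the identifier carried a letter that on this type of array marks probes shared between sequences or chosen under relaxed rules. Such probe sets may read more than the gene they are annotated to.

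Values are MAS5 signal intensities, with errors as SD between 4 replicates. Differences are on the log2(signal + 16) scale with the standard error (SE) of the limma fit, and a difference was called at a Benjamini-Hochberg adjusted p under 0.05 over all 7420 probe sets tested. Probe sets whose mean over all 40 arrays lay in the lowest 20% were not tested. This left 102 probe sets of 62 genes. The other 33 probe sets, among them every probe set of 19 genes, were too dim. In no group did any array read above 23.8 for these 33. Below, "tested frames" means the 102 probe sets. At 60 min NMD2 itself read 1654 ± 212 in GAL-NMD2, against 889 ± 132 in nmd2D, so its probe set gave signal in the disrupted strain too. The median signal per array ranged from 61.2 to 86.0.

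The first question was whether the frames changed differently in GAL-NMD2 and nmd2D after galactose. The interaction, the change of GAL-NMD2 over 60 min less the change of nmd2D, was called for 5 short frames, all lower: YNL162W-A, YNL146C-A, YMR158C-A, YHL048C-A and YBR085C-A. None was called higher. The 5 were 4.90% of the 102 tested frames, beside 3.91% of all probe sets called lower. Counted by probe sets, this share lay close to the background. Of the 102, 22 were annotated to YGR109W-B alone and added no call. By gene, 5 of 62 were called lower, beside 195 of 5304 genes with another single symbol. Of the latter, systematic names without a suffix had 23 of 320. These sets were not tested against each other. With the replicate number as a block, 15 tested frames were called lower (14.7%) and 0 higher, beside 9.7% and 0.0809% of all probe sets. The block added YER039C-A, YFL041W-A, YAL063C-A, YGR109W-B, YOL164W-A, YER188C-A, YJR112W-A, YOL097W-A, YHR007C-A and YJL136W-A, each with 1 probe set. As each array read the RNA of a whole culture, fewer cells with a transcript and less of it per cell cannot be told apart.

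YNL162W-A lies on chromosome XIV beside RIA1 and RPL42A. At 60 min it read 15.9, 11.6, 26.2 and 11.0 in GAL-NMD2 and 209, 69.8, 89.1 and 67.6 in nmd2D. Every GAL-NMD2 array lay below every nmd2D array. Before galactose it read 39.4, 53.4, 87.4 and 23.2 in GAL-NMD2 and 42.1, 40.7, 48.3 and 23.4 in nmd2D, so the strains overlapped. The interaction was log2 -2.08 (SE 0.46, limma adjusted p = 0.00481), negative in 4 of 4 replicate numbers. In GAL-NMD2 the signal fell by log2 0.99 (SE 0.32, limma adjusted p = 0.0385). In nmd2D the 60 min arrays stood log2 1.09 above those of 0 min (SE 0.32), a difference that limma did not call (adjusted p = 0.283) and that the replicate block did (adjusted p = 0.00833).

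YNL146C-A, also on chromosome XIV, lies between YNL146W and LSM7, which encodes a subunit of the Lsm ring that binds RNA. At 60 min it read 30.2, 40.2, 53.6 and 47.8 in GAL-NMD2 and 195.7, 144.6, 203 and 147.9 in nmd2D. At 0 min it read 162.8, 156.6, 177.4 and 155.1 in GAL-NMD2 and 240.4, 143.6, 210.4 and 130.1 in nmd2D. The groups were apart at 60 min and overlapped at 0 min. The interaction was log2 -1.58 (SE 0.32, limma adjusted p = 0.00206), negative in 4 of 4 replicate numbers.

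YMR158C-A on chromosome XIII was read by a probe set of the shared kind. At 60 min it read 20.7, 15.3, 27.9 and 19.0 in GAL-NMD2 and 99.3, 76.4, 104.9 and 81.4 in nmd2D. At 0 min it read 125, 52.7, 108 and 59.6 in GAL-NMD2 and 98.7, 66.0, 77.7 and 81.4 in nmd2D, with the groups overlapping. At 20 min it averaged 47.6 ± 19.5 in GAL-NMD2, against 96.8 ± 24.8 in nmd2D. The groups still overlapped there, and limma did not call the interaction of log2 -0.87 (SE 0.31). At 40 min it averaged 21.8 ± 5.30 in GAL-NMD2, against 80.5 ± 19.5 in nmd2D. The interaction was log2 -1.36 (SE 0.31, limma adjusted p = 0.0151) at 40 min and log2 -1.56 (SE 0.31, limma adjusted p = 0.00214) at 60 min.

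YHL048C-A lies on chromosome VIII beside COS8, a gene of the subtelomeric COS family. Its brightest probe set read 326.8, 165.3, 215.2 and 275.9 in GAL-NMD2 and 871.6, 545.4, 763.1 and 694.6 in nmd2D at 60 min. At 0 min it read 1031.4, 556.7, 549.7 and 620.7 in GAL-NMD2 and 1158.3, 651.9, 662.9 and 659.1 in nmd2D. The groups were apart at 60 min, and at 0 min replicate 1 of both strains was high. The interaction was log2 -1.33 (SE 0.32, limma adjusted p = 0.0119). This call was lost without nmd2D replicate 3 (limma adjusted p = 0.0738), without nmd2D replicate 4 (0.0508), with only the arrays compared (0.0560) and with the arrays centred on their medians (0.0767). Its other 2 probe sets were below the filter.

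YBR085C-A lies on chromosome II between IST2, which encodes a protein of contacts between the endoplasmic reticulum and the plasma membrane, and AAC3, a mitochondrial ADP/ATP carrier gene. It read 371.6, 626, 493.2 and 853 in GAL-NMD2 and 1156.4, 1353.1, 1181.1 and 1577.9 in nmd2D at 60 min. At 0 min it read 1321.2, 1215.9, 1137.5 and 1361.1 in GAL-NMD2 and 1187, 1351.2, 1263.7 and 1594.2 in nmd2D. At 20 min its highest GAL-NMD2 array, 1447.7, lay just below the lowest nmd2D array, 1448.1. Such a lack of overlap, with GAL-NMD2 lower, was found for 1 tested frame and for 2.76% of all probe sets. The interaction at 20 min was log2 -0.16 (SE 0.26) and was not called. The interaction was log2 -0.999 (SE 0.26, limma adjusted p = 0.0409) at 40 min and log2 -1.11 (SE 0.26, limma adjusted p = 0.00945) at 60 min. The call at 60 min was lost without nmd2D replicate 2 (limma adjusted p = 0.0556) and with median centring (0.0778).

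**Figure D1:**
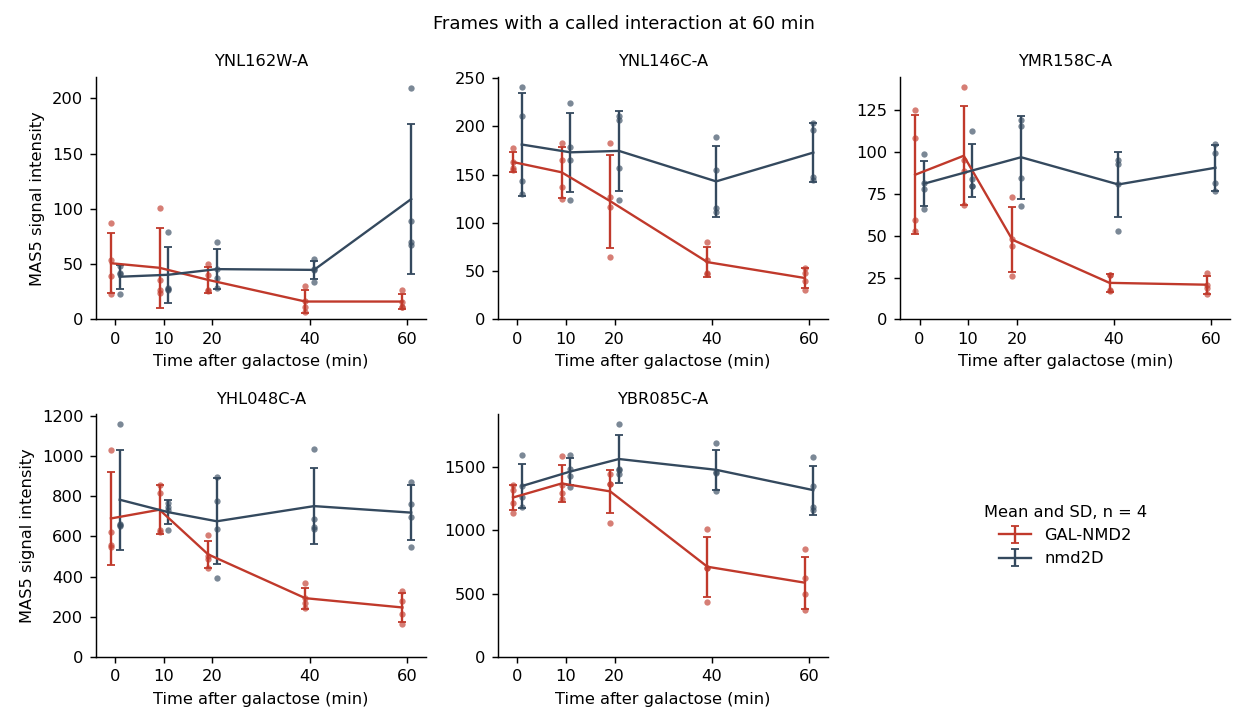
MAS5 signal intensity of the 5 frames called for the interaction at 60 min, by time after galactose in minutes, for GAL-NMD2 (red) and nmd2D (dark); points are arrays, lines join means and bars are SD (n = 4). In each panel the strains overlap at 0 min and the 4 GAL-NMD2 arrays lie below the 4 nmd2D arrays at 40 and 60 min.

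Earlier times gave fewer calls. At 40 min 2 of the tested frames, YMR158C-A and YBR085C-A, were called lower for the interaction (1.96%, beside 1.5% of all probe sets). The replicate block raised this to 10 lower and 0 higher, beside 6.64% and 0.337% of all probe sets. For 20 min limma called 0 of the 102, beside 0.0135% of all probe sets; an unadjusted p under 0.05 was found for 3 of them (2.94%), beside 1.58% of all probe sets. For 10 min it called 0 as well, and 0 had an unadjusted p under 0.05, beside 0.795% of all probe sets. The block gave 0 at both times, although replicate 2 was not paired at 20 min. At 40 min 0 calls were left without GAL-NMD2 replicate 1 or nmd2D replicate 3 or 4, and 1 without GAL-NMD2 replicate 2 or 3 or nmd2D replicate 2. In the order 10, 20, 40 and 60 min the tested frames had a median interaction of log2 -0.00, -0.09, -0.17 and -0.25, beside 0.06, 0.01, 0.02 and -0.01 over all 7420 probe sets. At 60 min 76 of the 102 interactions were negative, beside 51.0% of all probe sets. Of the 76, 19 came from the 22 tested probe sets of YGR109W-B. The 102 values ranged from log2 -2.08 to 0.59. These values moved with the scaling. With the arrays centred on their medians 55 of the 102 were negative (31.6% of all probe sets), with a median of log2 -0.08 (0.16 over all), and 3 were called lower (1.67%) and 0 higher (0.027%). With quantile normalization 66 were negative (39.8%), with a median of log2 -0.15 (0.07 over all), and 5 were called lower (2.25%). The interactions at all times share the 0 min arrays, so their values are not independent of each other.

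**Figure D2:**
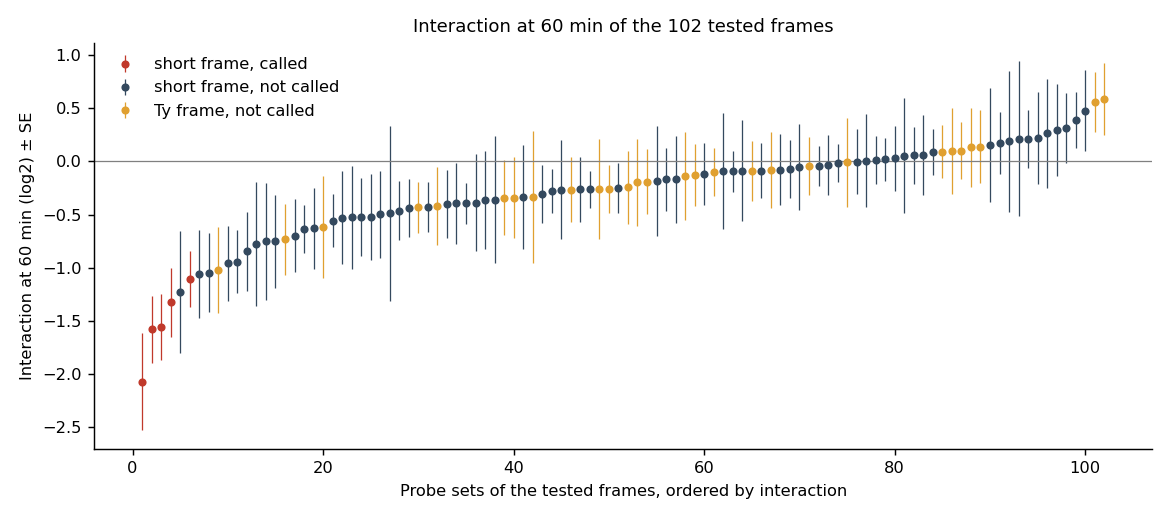
Interaction at 60 min (log2, with SE) of the 102 tested frames in rank order, as called short frames (red), other short frames (dark) and Ty Gag-Pol frames (yellow). The values run from -2.08 to 0.59, and the 5 called frames are all negative.

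Short and Ty frames, split by frame length alone, were then described apart. The short class includes probe sets of the shared kind annotated to YOR192C-C, which lies next to the Ty frame YOR192C-B. Whether these read Ty sequences was not tested. Of 74 tested short-frame probe sets, 5 were called lower for the interaction at 60 min (6.76%, beside 3.91% of all probe sets). Their median was log2 -0.26. Of 28 tested probe sets of Ty Gag-Pol frames 0 were called, with a median of log2 -0.16 and 21 of 28 negative. Of these 28, 2 had an unadjusted p under 0.05, beside 10.5% of all probe sets. The block called 1 of them lower, beside 9.7%. YGR109W-B alone held 22 of the 28 and 19 of the 21 negative values, so this median mainly describes 1 gene. Systematic names without a suffix, the other genes on the array that lack a standard name, had 24 of 343 probe sets called lower (7.0%) and a median of log2 -0.18. These counts describe the classes, and the classes were not tested against each other. Of the 51 tested probe sets with no letter for shared probes in their identifier, 4 were called lower (7.84%). Of the 51 with such a letter 1 was (1.96%), beside 3.91% of all probe sets. With so few calls, no difference between these kinds was read from them.

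Brightness moved with these values. All 7420 probe sets were put into 5 equal classes of mean signal. The median interaction at 60 min over all probe sets was log2 -0.07 in the dimmest class and 0.09 in the brightest, and the share called lower was lowest in these classes, 1.42% and 1.89%, and highest, 6.40%, in the fourth. The tested frames numbered 19, 23, 12, 19 and 29 from the dimmest to the brightest class, with medians of log2 -0.07, -0.40, -0.45, -0.26 and -0.01. The part of brightness in the difference between the frames and all probe sets was not tested.

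Compared directly at 60 min, 18 of the 102 tested frames were lower in GAL-NMD2 than in nmd2D, and 2 were higher. The shares were 17.6% and 1.96%, beside 11.9% of all probe sets lower and 0.431% higher. The 18 probe sets stood for 16 of the 62 genes, beside 583 of 5304 genes with another single symbol. Of the latter, systematic names without a suffix had 74 of 320. Of the 18 probe sets, 17 were short frames, out of 74 tested. The replicate block made this 25 lower and 3 higher, beside 20.1% and 2.1% of all probe sets. Centring the arrays on their medians gave 7 lower (6.86%) and 3 higher (2.94%), beside 6.29% and 5.93% of all probe sets. Quantile normalization gave 8 lower (7.84%) and 1 higher (0.980%), beside 6.97% and 1.12%. Under both scalings the shares of frames called lower thus lay close to those of all probe sets. All 7 and all 8 were among the 18. Leaving out nmd2D replicate 2 or 4 left 13 calls in all. Centring moved the median strain difference of all probe sets to log2 0.21, where it had been -0.05, and that of the tested frames to 0.10, where it had been -0.16, so the direction of the frames' median flipped. Quantile normalization put the medians at 0.08 for all probe sets and -0.01 for the tested frames. The median signal of the arrays at 60 min averaged 65.6 ± 3.74 in GAL-NMD2 and 81.7 ± 3.18 in nmd2D.

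Besides the 5 frames above, YER039C-A, YOL164W-A, YFL041W-A and YJR112W-A were among the 18; like every other frame named below except YDR524C-B and the rises of YGR109W-B, they were chosen after their values were seen. YER039C-A read 14.5, 32.5, 14.4 and 34.9 in GAL-NMD2 and 42.1, 111.5, 51.0 and 154.9 in nmd2D at 60 min. In both strains replicates 2 and 4 were high and 1 and 3 low, and the groups did not overlap. The strain difference was log2 -1.30 (SE 0.41, limma adjusted p = 0.0266). The interaction of log2 -1.23 (SE 0.57) was called only in the blocked fit (adjusted p = 0.00348, against 0.402 without the block).

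YOL164W-A, near the end of chromosome XV beside the sulfatase gene BDS1, read 20.3, 17.7, 15.0 and 22.6 in GAL-NMD2 and 42.3, 81.6, 69.7 and 67.5 in nmd2D. The groups did not overlap, and GAL-NMD2 was 2.30-fold lower (log2 -1.20, SE 0.25, limma adjusted p = 0.000659). Of the 3 tested probe sets of BDS1, the next gene on its strand, that with the largest difference, log2 -1.29, was not called (limma adjusted p = 0.0545) and was called with the replicate block (adjusted p = 1.99e-10). YFL041W-A, beside the iron oxidase gene FET5, read 55.2, 56.3, 41.9 and 116.6 in GAL-NMD2 and 136.5, 133.9, 200.4 and 128.9 in nmd2D. The highest GAL-NMD2 array, replicate 4, lay just below the lowest nmd2D array (log2 -1.05, SE 0.29, limma adjusted p = 0.0130). YJR112W-A read 242.9, 380.4, 367.9 and 369.2 in GAL-NMD2 and 524.7, 656.7, 794.1 and 664.2 in nmd2D, with no overlap (log2 -0.93, SE 0.26, limma adjusted p = 0.0133).

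Apart from YAL063C-A, which is described below, the remaining short frames of the 18 differed less. YOL097W-A, YER188C-A, YJL136W-A, YHR007C-A and YGL194C-A were lower by 1.68-fold, 1.58-fold, 1.52-fold, 1.51-fold and 1.35-fold. YHR007C-A, which lies between SOD2, the mitochondrial superoxide dismutase gene, and ERG11, a gene of ergosterol synthesis, read 22.4, 13.2, 12.1 and 21.5 in GAL-NMD2 and 27.9, 42.2, 30.1 and 36.0 in nmd2D (adjusted p = 0.00890 by limma). YOL097W-A read 37.8, 93.1, 86.5 and 70.4 in GAL-NMD2 and 95.7, 147.1, 135.9 and 133.4 in nmd2D (adjusted p = 0.0341 by limma). In both the strains did not overlap, in YOL097W-A by a narrow margin (93.1 against 95.7). YGL194C-A also came close to overlap (adjusted p = 0.0326 by limma). It read 54.2, 58.1, 53.8 and 76.7 in GAL-NMD2 and 95.7, 83.5, 89.3 and 78.9 in nmd2D. YCR095W-A had a larger difference than these but was not called. It read 11.0, 30.2, 12.5 and 37.8 in GAL-NMD2 and 44.5, 103.1, 38.3 and 100.6 in nmd2D (limma adjusted p = 0.0661, log2 -1.14, SE 0.41), and the block brought its adjusted p to 3.75e-05. As in YER039C-A, replicates 2 and 4 of each strain lay above replicates 1 and 3. Without overlap between the arrays of the strains, 19 of the 102 tested frames were lower in GAL-NMD2 and 2 higher at 60 min, beside 13.8% and 1.37% of all probe sets. At 40 min these counts were 12 and 1 (10.3% and 1.67% over all), at 20 min 1 and 3 (2.76% and 1.17%), and at 0 min 0 and 0 (0.364% and 0.283%).

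The 18 probe sets lower at 60 min were followed over the course. Their median strain difference was log2 -0.05 before galactose, -0.05 after 10 min, -0.45 after 20 min, -0.81 after 40 min and -1.07 after 60 min. Because the last time chose them, the size there is overstated. Deviations shared by same-numbered arrays may carry part of this choice to earlier times, which was not tested. At 20 min 16 of the 18 differences were negative, beside 55.4% of all probe sets. At 40 min all 18 were, beside 50.3%, and 8 of them were called. These 8 were also all the calls among the tested frames at 40 min (7.84%, beside 7.96% of all probe sets lower), and the replicate block gave 21 lower and 1 higher, beside 15.8% and 3.27%. Leaving out GAL-NMD2 replicate 1 or nmd2D replicate 2 left 5 calls at 40 min. The values at 20 min differed among frames, but limma called none of them and the timing was not tested. YMR158C-A, YER039C-A and YOL164W-A stood at log2 -0.85, -0.78 and -0.71 at 20 min, against -1.54, -1.30 and -1.20 at 60 min. YBR085C-A stood at -0.26 at 20 min and -1.09 at 40 min, and YJR112W-A at 0.13 and -0.61 at these times.

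**Figure D3:**
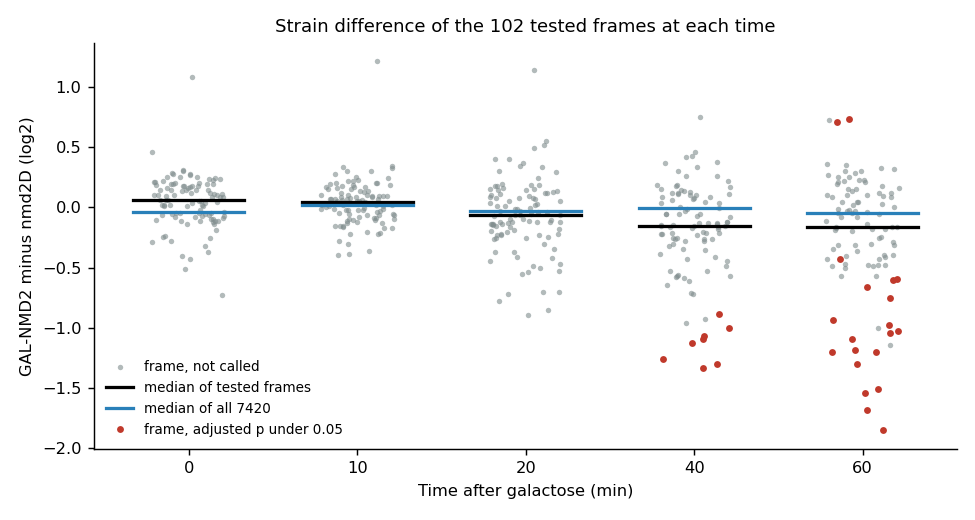
GAL-NMD2 minus nmd2D (log2) of the 102 tested frames at each time after galactose in minutes; each point is a probe set, red where the adjusted p was under 0.05, with bars at the median of the tested frames (black) and of all 7420 probe sets (blue). Calls appear at 40 min (8 lower) and 60 min (18 lower, 2 higher).

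**Figure D4:**
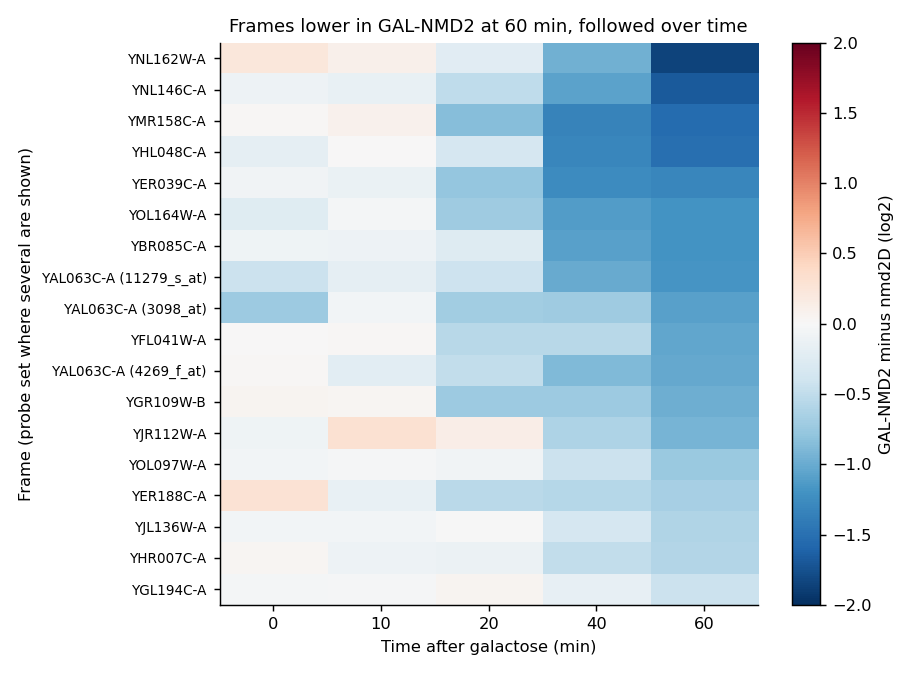
Strain difference, GAL-NMD2 minus nmd2D (log2, colour), at each time after galactose in minutes for the 18 probe sets lower at 60 min, ordered by that value; YGR109W-B, YER188C-A and YJL136W-A are their called probe sets. The median runs from -0.05 at 0 min to -1.07 at 60 min, and by 40 min all 18 are negative.

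Within GAL-NMD2, 12 of the tested frames fell between 0 and 60 min and 1 rose (11.8% and 0.980%, beside 10.3% and 1.19% of all probe sets). With the replicate block 24 fell and 1 rose, beside 18.8% and 4.81%. Leaving out GAL-NMD2 replicate 2 or 3 left 8 or 7 calls in all. The 12 included the 5 frames called for the interaction. YNL146C-A fell by log2 1.62 (SE 0.22, limma adjusted p = 2.66e-06) and YFL041W-A by log2 1.36 (SE 0.29, limma adjusted p = 0.00117). Within nmd2D limma called 0 of the 102, beside 0.0809% of all probe sets lower and 0.175% higher; 2 of the 102 (1.96%) had an unadjusted p under 0.05, beside 4.77% of all. The replicate block called 1, the rise of YNL162W-A (0.980%), beside 1.08% of all probe sets lower and 0.903% higher.

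Between the strains before galactose limma called 0 of the tested frames and 0.0135% of all probe sets, as higher (2 frames, 1.96%, had an unadjusted p under 0.05, beside 1.98% of all). For 10 min it called 0, beside 0.0135% higher (1 frame, 0.980%, had an unadjusted p under 0.05, beside 1.23%). For 20 min it called 0, beside 0.472% lower and 0.027% higher (13 frames, 12.7%, had an unadjusted p under 0.05, beside 9.61%). At 20 min, where replicate 2 was not paired, the replicate block gave 6 lower and 1 higher, beside 5.46% and 1.44%, and without GAL-NMD2 replicate 2 limma called 3. With the replicate block the frame YDL085C-A alone was called at 0 min, higher in GAL-NMD2, beside 0.0404% of all probe sets lower and 0.108% higher. At 10 min it was again the frame called (0.0404% lower and 0.0809% higher over all probe sets). Without overlap of the strains it lay higher in GAL-NMD2 at 10 and at 20 min, as did 0.539% and 1.17% of all probe sets. At 0 min it read 299.5, 235.5, 886.7 and 622.2 in GAL-NMD2 and 138.5, 213.2, 374.1 and 148.9 in nmd2D. The groups overlapped, while each GAL-NMD2 array lay above the nmd2D array of the same number. At the 5 times in order, the strain differences were log2 1.08, 1.21, 1.14, 0.75 and 0.72 (SE 0.42), with no call by limma; in the blocked fit the adjusted p was 0.0309 at 0 min and 0.0180 at 60 min. Its neighbour on the opposite strand, NDE2, a mitochondrial external NADH dehydrogenase gene, differed by log2 0.46 at 0 min and 0.85 at 60 min (limma adjusted p = 0.276 at 60 min, and 0.00233 in the blocked fit).

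Probe sets annotated to the same gene were set side by side. YAL063C-A, beside the flocculin gene FLO9, had 3 tested probe sets, all lower in GAL-NMD2 at 60 min. The first (11279_s_at) read 10.3, 15.3, 16.9 and 29.3 in GAL-NMD2 and 35.9, 59.1, 62.9 and 90.5 in nmd2D. The strain differences of 11279_s_at, 3098_at and 4269_f_at were log2 -1.18, -1.09 and -1.03 (limma adjusted p = 0.00711, 0.0212 and 0.00588). None of the 3 was called for the interaction without the block, which called 4269_f_at (adjusted p = 0.00196), and 3098_at already differed by log2 -0.73 at 0 min, without a call. The neighbouring frame YAL064W was lower as well, by log2 -0.92 and -1.17 in its 2 tested probe sets (limma adjusted p = 0.00682 and 0.0191).

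The probe sets annotated to YGR109W-B did not move together. Of 22 tested, 1 was lower and 2 were higher in GAL-NMD2 at 60 min, and the strain differences ranged from log2 -0.97 to 0.74 with a median of -0.05. The probe set 3445_f_at read 50.6, 30.4, 51.0 and 39.7 in GAL-NMD2 and 158.8, 79.2, 138.2 and 51.0 in nmd2D (limma adjusted p = 0.0176, log2 -0.97, SE 0.29), with the highest GAL-NMD2 array equal to the lowest nmd2D array. The probe set 3622_f_at read 1551.8, 1373.4, 1636 and 1785 in GAL-NMD2 and 913.6, 1166.4, 990.2 and 746.9 in nmd2D (limma adjusted p = 0.00890, log2 0.74, SE 0.20). Here all GAL-NMD2 arrays were higher. It also rose within GAL-NMD2, where it had read 706.3, 1044.1, 847.2 and 1065.9 at 0 min (log2 0.80, SE 0.20, limma adjusted p = 0.00514).

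The third, 3564_f_at, read 1175.4, 1449.1, 1665.8 and 1663.9 in GAL-NMD2 and 836.4, 975.5, 1051.4 and 753.9 in nmd2D (limma adjusted p = 0.0473, log2 0.71, SE 0.24). The groups did not overlap, but the call was lost in 8 of 17 other settings, among them without GAL-NMD2 replicate 2, 3 or 4 and without nmd2D replicate 1, 3 or 4 (limma adjusted p from 0.0513 to 0.169). The interaction at 60 min was called for none of the 22 by limma (19 were negative, with a median of log2 -0.22), and the replicate block called 3445_f_at (adjusted p = 0.00293). All 22 are of the shared kind, and which Ty or repeat sequences each reads was not tested.

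**Figure D5:**
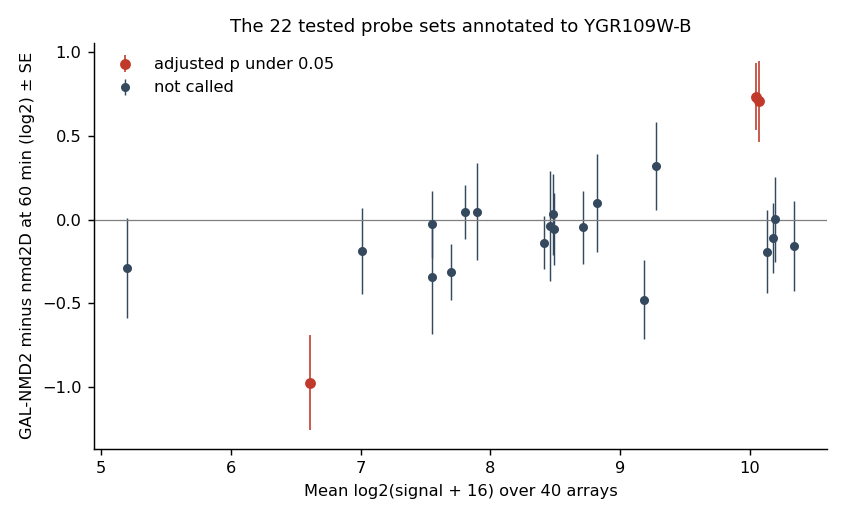
Strain difference at 60 min (GAL-NMD2 minus nmd2D, log2, with SE) of the 22 tested probe sets annotated to YGR109W-B, against their mean log2(signal + 16) over 40 arrays; red marks an adjusted p under 0.05. They range from -0.97 to 0.74, with 1 called lower and 2 called higher.

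The other 6 Ty Gag-Pol frames had 1 tested probe set each, and limma called none of them. All 6 stood slightly higher in GAL-NMD2 at 60 min, by log2 0.12 (YHR214C-B) to 0.30 (YDR261W-B), with standard errors from 0.18 to 0.44. Their interactions ranged from log2 -0.33 to 0.14. YOR192C-C, a short frame next to the Ty frame YOR192C-B, had 4 of its 7 probe sets tested. Of these, 3 lay at log2 0.22 to 0.33 between the strains at 60 min, and 3506_s_at lay at -0.49, with no call.

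Another short frame with several probe sets, some of them of the shared kind, was YDR034C-A. Of its 7 probe sets 5 were tested and none was called by limma. At 60 min 2306_at read 11.6, 21.4, 15.4 and 20.3 in GAL-NMD2 and 20.8, 47.3, 34.4 and 32.3 in nmd2D (log2 -0.57, adjusted p = 0.187 by limma). Its probe set 3310_s_at read 69.5, 58.2, 74.3 and 237.7 in GAL-NMD2 and 135.8, 91.5, 998.3 and 125.2 in nmd2D, with replicate 3 of nmd2D far above the rest (2.00-fold lower, log2 SE 0.58, adjusted p = 0.362 by limma). YER188C-A had 3 tested probe sets, and 1 of them was called. That probe set, 3325_f_at, read 124.1, 154.7, 157.3 and 165.7 in GAL-NMD2 and 218.7, 272.1, 273.1 and 226.0 in nmd2D. Its probe set 11266_f_at read 158.2, 239.4, 187.8 and 264.5 in GAL-NMD2 and 336.1, 227.6, 276.5 and 378.4 in nmd2D, with overlap.

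The 3 brightest probe sets all belonged to YDR524C-B on chromosome IV, and limma called none of them in any of the 11 comparisons. The brightest, 5926_g_at, read 7772.8, 4384.7, 8227.4 and 6463.6 in GAL-NMD2 and 6457.4, 4881.7, 7050.7 and 4736.4 in nmd2D at 60 min. The groups overlapped, and replicate 2 was low in GAL-NMD2. Its interaction was log2 -0.00 (SE 0.31), and those of 5925_at and 5887_i_at were 0.02 (SE 0.22) and 0.09 (SE 0.22). With median centring 5887_i_at was called higher in GAL-NMD2 at 60 min (log2 0.55, SE 0.18, limma adjusted p = 0.0417). YJL136W-A had 2 tested probe sets, which differed by log2 -0.61 and -0.40 at 60 min; the first was called (limma adjusted p = 0.0167) and the second was not (0.230).

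Genes next to the frames were examined on the R64 gene order. Of the 62 tested genes, 54 had a neighbour with a tested probe set, and these neighbours held 106 probe sets. For the interaction at 60 min 3 of the 106 were called lower, HVG1, RTR1 and FLO11, beside 3.91% of all probe sets, and their median was log2 0.01. None of the 5 called frames had a neighbour that was called; 4 of them had a tested one. IST2 and AAC3, on the sides of YBR085C-A, had interactions of log2 0.15 and -0.38, RIA1, beside YNL162W-A, of -0.07, and YNL146W and LSM7 of -0.13 and 0.04. The 3 probe sets of COS8 had -0.23, -0.17 and -0.21.

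YER039C-A was the frame of the 18 whose neighbour was called for the interaction. HVG1, the next gene on its strand and a homologue of the nucleotide-sugar transporter gene VRG4, had 94.5 ± 28.3 in GAL-NMD2, against 362 ± 117 in nmd2D, at 60 min, and 341 ± 137 in GAL-NMD2, against 334 ± 78.3 in nmd2D, at 0 min (interaction log2 -1.74, SE 0.41, limma adjusted p = 0.00824). Whether the probe set of YER039C-A reads the same RNA was not tested. YIR018C-A lies beside FLO11, a cell-surface flocculin gene (interaction log2 -1.16), and YER138W-A beside RTR1, which encodes a phosphatase acting on RNA polymerase II (log2 -0.91).

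As a setting for these values, 10 genes linked to NMD and mRNA decay were examined. At 60 min the interaction was called lower for NMD4 (log2 -1.72, SE 0.22, limma adjusted p = 4.19e-06) and EBS1 (log2 -0.84, SE 0.21, adjusted p = 0.0141) and higher for NMD2 (log2 0.69, SE 0.21, adjusted p = 0.0485). The other 7, NAM7, UPF3, DCP1, DCP2, XRN1, HRP1 and PUB1, were not called, and the median of the 10 was log2 0.11. The shares called were 20% lower and 10% higher, beside 3.91% and 0.0135% of all probe sets. The 1 higher call was NMD2, the gene on the plasmid.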

How the data were processed

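Total RNA from 40 samples was labelled with biotin and measured on Affymetrix yeast arrays. The authors' deposited values are MAS5 signal intensities, given per probe set, per the submitters' processing notes, which give no version. With 2% of values trimmed at each end, every array had a mean of 250.2, while untrimmed means ran from 304.8 to 343.1, so arrays share a trimmed mean and levels are relative to it. Precision is limited by the 4 arrays per group. Frames were found from the platform annotation. Sequences were not used, and RefSeq R64 served for names, frame lengths and gene order; it names no products, so Ty Gag-Pol frames were taken as those over 4000 bp.

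Intensities were transformed as log2(signal + 16), and probe sets below the 20th percentile of mean signal were left out. limma 3.58.1 in R 4.3.3 (lmFit, eBayes with trend) fitted 10 group means over all 40 arrays with 30 residual degrees of freedom. P-values were adjusted over all 7420 probe sets. The code was tested on simulated data. The replicates are called independent in the series design. Replicate numbers come from the labels. Deviations of same-numbered arrays correlated above 0.1 in 51 of 52 pairs, the exception being replicate 2 of the strains at 20 min (r = 0.068), so the numbers were taken to pair the samples except at 20 min. Blocked counts at 20 min are printed, but their pairing failed this check. The GAL-NMD2 array concerned was kept.

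Named in full were frames called for the interaction at 60 min, for the strains at 0 min or for nmd2D over time, the largest called rises and the brightest. Members, lists and tests were chosen with earlier results of these data known. Alternatives were other pseudocounts (1 and 64), filters (none, the 40th percentile), scalings, samples and member sets.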

Additional observations from a re-analysis of the deposited data

Results flagged for a closer look

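The galactose response differed between the strains, by the interaction term, for YMR158C-A (log2 -1.36) and YBR085C-A (log2 -0.999) at 40 min. At 60 min it differed for YNL162W-A (log2 -2.08), YNL146C-A (log2 -1.58), YMR158C-A (log2 -1.56), YHL048C-A (log2 -1.33) and YBR085C-A (log2 -1.11).

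In 10 of 100 groups of 4 arrays of the frames named in full, 1 array lay far from the others. Chance gives about 5% of groups if values are normal and the groups independent. These groups share arrays, and some share a gene, so the count cannot be read as an excess over that 5%. YNL162W-A read 100.5 in GAL-NMD2 replicate 3 at 10 min (others 23.5 to 36.0), 78.7 in nmd2D replicate 3 at 10 min (others 26.4 to 28.7) and 209 in nmd2D replicate 1 at 60 min (others 67.6 to 89.1). YMR158C-A read 112.7 in nmd2D replicate 1 at 10 min (others 79.4 to 84.0). YHL048C-A read 1031.4 in GAL-NMD2 replicate 1 at 0 min (others 549.7 to 620.7), 1158.3 in nmd2D replicate 1 at 0 min (others 651.9 to 662.9) and 1034.6 in nmd2D replicate 1 at 40 min (others 637.6 to 686.5). YBR085C-A read 1841.6 in nmd2D replicate 4 at 20 min (others 1448.1 to 1485.6). The probe set 5926_g_at of YDR524C-B read 4249.3 in GAL-NMD2 replicate 2 at 10 min (others 6495.4 to 6578.1) and 9531 in GAL-NMD2 replicate 3 at 40 min (others 6119.5 to 6520).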

How the results depend on the processing

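Over 11 comparisons, the counts of called frames stayed within 1.5 times the count of the report with pseudocounts of 1 and 64, without a filter, with the 40th percentile as filter, without frames overlapping a gene and without Ty Gag-Pol frames. With median centring the interaction gave 3 calls at 60 min and 1 at 40 min, and the strains 10 at 60 min. Quantile normalization gave 9 for the strains at 60 min, and fitting only the arrays compared gave 0 for the interaction at 40 min. Without probe sets of the shared kind, fewer being counted, the interaction gave 1 at 40 min, the strains 5 at 40 min and 12 at 60 min, and GAL-NMD2 over time 8. The replicate block called 15 interactions at 60 min and 10 at 40 min. For the strains it gave 1 at 0 min, 1 at 10 min, 7 at 20 min, where the numbers did not pair replicate 2 (6 lower and 1 higher, beside 5.46% and 1.44% of all probe sets) and 22 at 40 min. It gave 25 for GAL-NMD2 and 1 for nmd2D over time, and moved the other 3 counts by less than 1.5 times. Without GAL-NMD2 replicate 2 at 20 min, left out after seeing the data, the strains gave 2 calls there.

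Each replicate number of each strain was left out in turn, at all times together. This gave 0 to 2 called interactions at 40 min and 4 to 6 at 60 min. For the strains it gave 0 to 3 calls at 20 min and 5 to 8 at 40 min. At 60 min the strains gave 13 (without nmd2D replicate 2 or 4) to 18. GAL-NMD2 over time gave 7 (without GAL-NMD2 replicate 3) to 13. YNL162W-A, YNL146C-A and YMR158C-A kept their calls for the interaction at 60 min in every setting run. Among YDR524C-B probe sets, with interactions near 0, the sign turned for 5926_g_at with median centring (log2 0.17) and for 5925_at with quantile normalization (log2 -0.0013). Leaving out replicate numbers put 5926_g_at between log2 -0.0996 and 0.0751, 5925_at between -0.0745 and 0.0846 and 5887_i_at between -0.0170 and 0.133. The rise of 3622_f_at lost its call between strains without nmd2D replicate 4 (limma adjusted p = 0.0582) and over time without GAL-NMD2 replicate 3 (0.0587). The causes were not tested. Dim frames, near background on most arrays, limit what could be seen: 33 of 135 probe sets were not tested.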
